A study of Mus musculus with 6 samples.

Results

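Potassium channel genes were examined in smooth muscle cells of the mouse aorta with and without miR-21. These cells contract and set vessel tone. The members were all genes of the deposited count table that are marked protein-coding and whose symbol starts with Kcn, which gave 50 of 20199 genes in the table and of 14195 protein-coding genes. The study sequenced RNA of cells taken from the aorta of C57B6 mice at 12 weeks of age, with 3 libraries per genotype. The control group was WT/mTmG/Myh11ERT2 and the other group was miR-21fl/fl with the same mTmG and Myh11ERT2 alleles, labelled miR21 -/- and called knockout here. Both groups thus carried mTmG, a fluorescent reporter of Cre activity, and Myh11ERT2, a tamoxifen-inducible Cre driven by the smooth muscle myosin gene. The sources used here do not say whether tamoxifen was given, whether each library came from its own animal or whether the cells were cultured, so p-values measure the spread between these libraries, part of which may be technical. The deletion itself was not checked, because libraries of long RNA do not measure a mature microRNA.

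Potassium channels let potassium leave the cell and so pull the membrane potential of a smooth muscle cell to more negative values, which closes voltage-gated calcium channels and favours relaxation. Each channel is built from pore-forming alpha subunits, often with auxiliary subunits that set its gating or its transport to the membrane. In arterial muscle the best known are the large-conductance calcium-activated BK channel, voltage-gated Kv channels, ATP-sensitive channels of the inward rectifier family and K2P background channels. The microRNA miR-21 represses transcripts through pairing of its seed with sites in the 3′ UTR.

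The sequences that relate the microRNA to the channel genes are shown first, because they name the members that could pair with it. The mature sequence comes from RefSeq (GRCm38.p6), with the seed, bases 2 to 8, in capitals:

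mmu-miR-21a-5p: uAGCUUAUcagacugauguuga

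Matches to this seed were sought in 1 3′ UTR per gene, the longest in the GENCODE vM1 transcripts, which gave sequence and no coordinates. The sites counted were ATAAGCT and TAAGCTA, and ATAAGCTA, which holds both, was called an 8mer. Of 31 tested members with a searchable 3′ UTR, 8 held at least 1 site (25.8%), against 1323 of 11009 tested protein-coding genes (12.0%). A longer 3′ UTR has more places for a match, and these shares were not matched for length, so they do not show enrichment. The 8 members included Kcnk6, Kcne4, Kcnj15, Kcnmb1, Kcnd3, Kcnq5 and Kcnt2. A site also lay in Kcnh7, whose counts were too low to test. The sites of the 8mer members and of 3 other well expressed members read as follows, 5′ to 3′ with the match in capitals:

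Kcnk6: agccaggtgataaaATAAGCTAagca

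Kcne4: aattagctgggagtATAAGCTAtgac

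Kcnj15: agaagaattaaatgATAAGCTtact

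Kcnmb1: taaaatgcaaaacgATAAGCTttct

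Kcnd3: catttaaaatacagATAAGCTgttc

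Median log2 fold changes, knockout minus wild type, of the members were 0.094 with a site and 0.086 without, and over all searched genes 0.082 and −0.0069. Of the 8 members with a site, 6 had a higher fitted mean in knockout. Kcnj15 (log2 fold change 0.41 ± 0.14 SE) and Kcnk6 (0.36 ± 0.17) had the largest values among them, while Kcne4, with an 8mer and a further 7mer, was at −0.0033 ± 0.20. A match describes these letters and does not show that the site is used.

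Library totals ran from 17123748 to 28610649 counts. Of the 50 members, 32 had enough counts to be tested, by the default of edgeR's filter on low counts, and 27 reached a mean of 1 CPM (CPM, counts scaled to a common library size with TMM factors). For the labelled cell type, the 10 smooth muscle markers summed to 47200 to 53053 CPM in wild type and 47991 to 49725 CPM in knockout. In fitted mean 3 of these 10 were higher and 7 lower (median log2 fold change −0.060). At an unadjusted edgeR p under 0.05, 0 were higher and 1 was lower. Of 10 endothelial markers 7 were under 1 CPM, and the list summed to 72.7 to 82.9 CPM in wild type and 74.5 to 96.4 CPM in knockout. The 6 of them tested were all higher in fitted mean, with 0 at an unadjusted edgeR p under 0.05. The 9 macrophage markers analysed summed to 4.93 to 10.3 CPM and 2.62 to 10.1 CPM. Adventitial fibroblast markers summed to 2374 to 2800.04 CPM in wild type and 1838 to 2212 CPM in knockout, so that every knockout library was below every wild-type library. Col1a1 alone was at 1590 to 2383 CPM over the 6 libraries, so that it made up most of the sum. Of the 10 markers 5 were higher and 5 lower in fitted mean (median log2 fold change −0.067), and 2, Col1a1 and Mfap5, were lower at an unadjusted edgeR p under 0.05. The part of these markers in the results below was not tested. Wild-type replicate 1 was the lowest of the 6 libraries for 11 of the 32 tested members, and wild-type replicate 2 for 10. Over all 15185 genes tested those libraries were lowest for 32.5% and 12.6%. Wild-type replicate 1 was the highest library for 5 members and for 32.1% of all genes.

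Expression was concentrated in a few subunits. Levels were compared between genes as CPM per kilobase of the longest annotated transcript. Kcnmb1, the BK beta1 subunit that raises the channel's calcium sensitivity, was at 97.4 ± 6.02 CPM per kilobase (SD over all 6 libraries), the highest by this length. It was followed by Kcnab1, a cytoplasmic beta subunit of Kv1 channels, at 82.6 ± 17.6 and by Kcnh2, the pore of the ERG channel, at 66.0 ± 4.87. Among these 3, the range over the libraries of Kcnmb1 overlapped that of Kcnab1, and the range of Kcnab1 that of Kcnh2. The first rank depends on the length used: with the mean length of a gene's annotated transcripts, chosen as an alternative, Kcnab1 was at 131 ± 27.9 and above Kcnmb1 (97.4 ± 6.02) in 5 of 6 libraries, all but wild-type replicate 1. By longest transcript a gap followed Kcnh2, since the lowest library for it (57.4) was above the highest for Kcnma1, the BK pore (28.3 ± 3.07, highest 31.4). Kcnj8, the pore of the vascular ATP-sensitive channel, was at 21.5 ± 1.91, Kcnc4 at 16.002 ± 4.45 and Kcne4 at 15.990 ± 2.91. From Kcnma1 through Kcnj8 and Kcnc4 to Kcne4, each gene's range over the libraries overlapped that of the next one named. In all, 20 members were at 1 CPM per kilobase or more, and the lowest tested member, Kcnab2, was at 0.0921 ± 0.0490.

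**Figure D1:**
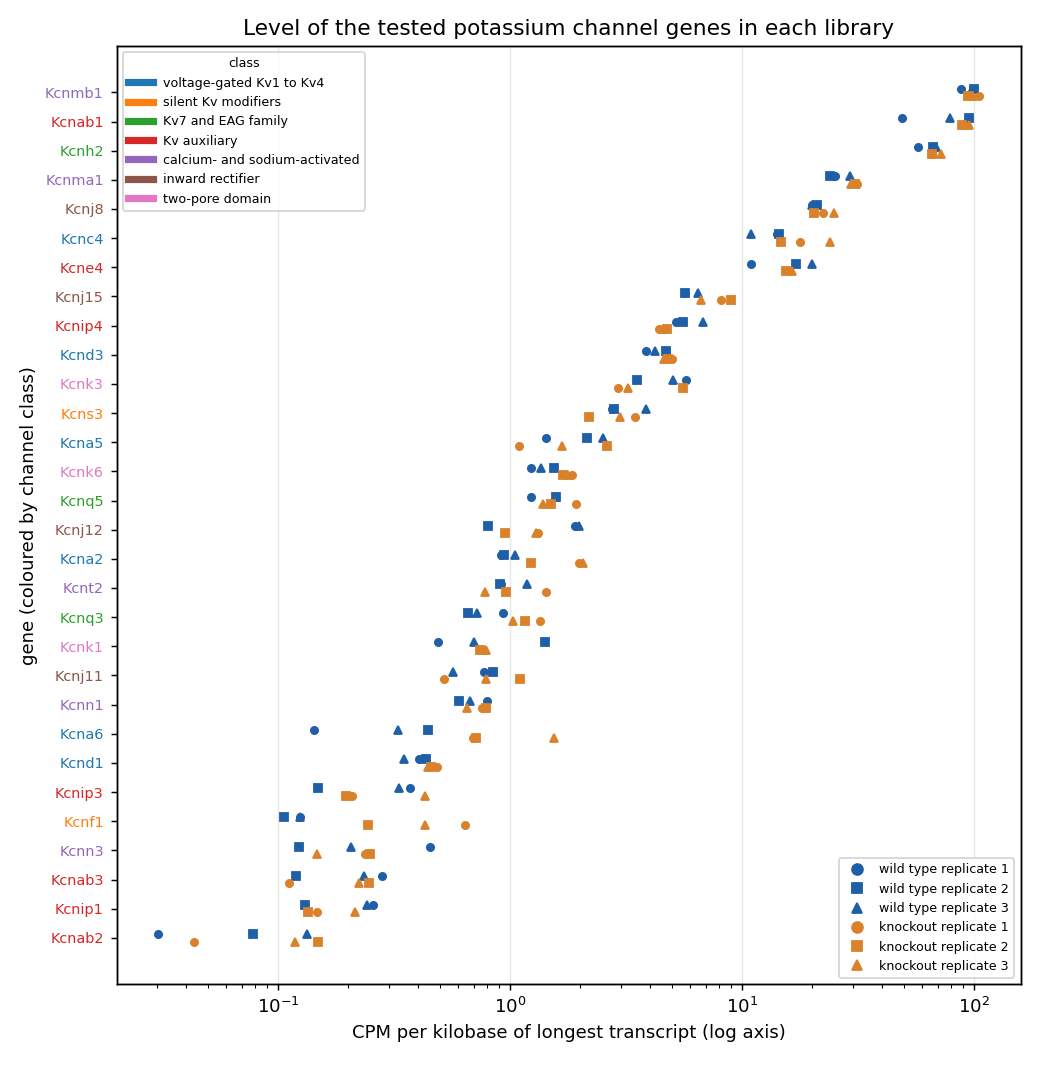
CPM per kilobase of longest transcript (log axis) for 30 of the 32 tested members, ordered by their mean, with 1 point per library (blue wild type, orange knockout) and gene names coloured by channel class. Kcnmb1, Kcnab1 and Kcnh2 stand at the top near 66 to 97.4, and the order spans down to Kcnab2 at 0.0921.

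By class, the calcium- and sodium-activated members made up 30.4% to 34.5% of the summed per-length level of all 50 members in a library. The Kv auxiliary members held 19.7% to 29.4% and the Kv7 and EAG family 21.999% to 24.9%. The Kv1 to Kv4 pores held 6.61% to 9.77%, the inward rectifiers 7.09% to 8.64%, the K2P channels 1.32% to 2.27% and the silent Kv modifiers 0.690% to 1.25%. The lowest auxiliary share was that of wild-type replicate 1, the library in which Kcnab1 and Kcne4 were lowest. By this length the calcium- and sodium-activated class came first in every library. That class counts the BK beta subunit Kcnmb1, at 97.4 CPM per kilobase most of its sum, together with its pores. Auxiliary subunits of Kv channels were instead counted in a class of their own, so the class sums hold unlike sets of subunits. By mean transcript length the auxiliary class came first in 5 of 6 libraries, with 25.4% to 36.6% against 27.7% to 32.3%, and the calcium- and sodium-activated class in wild-type replicate 1. By longest transcript the auxiliary class was above the Kv7 and EAG family in 5 of 6 libraries and below it in wild-type replicate 1. Within a sample of many cells, fewer cells of a type and less RNA per cell cannot be told apart.

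Genotype differences were tested gene by gene over the whole table with edgeR's quasi-likelihood test. No member passed the adjusted threshold of 0.05 (0 of 32; 0% of the 15185 genes tested), and edgeR's adjusted p-values of the members ran from 0.489 to 0.999. At an unadjusted p under 0.05, edgeR listed 6 of 32 members as higher in knockout (18.75%), where 2.85% of all genes were listed as higher. It listed 1 of 32 as lower, where 3.44% of all genes were. The 6 were Kcnf1, Kcna6, Kcna2, Kcnq3, Kcnc4 and Kcnj15, and the 1 was Kcnip4. When TMM factors were replaced by library totals the split was 7 higher and 0 lower. Over all genes that change moved the split from 433 higher and 522 lower to 643 higher and 376 lower. DESeq2 called 2 members, Kcnf1 and Kcna6, which both rose, among 29 members for which it gave an adjusted p, against 0.473% of the 14596 genes it adjusted. In limma voom 0 members passed and 7 had an unadjusted p under 0.05, as did 982 of the 15185 genes. The groups did not overlap, with knockout above, for 9 of 32 members (6.95% of all genes), and with knockout below for 1 of 32 (7.57% of all genes). Of all tested members the fitted mean was higher for 20 and lower for 12 (62.5% and, over all genes, 49.9% higher). The members' median log2 fold change was 0.10, and that of all genes −0.00078.

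**Figure D2:**
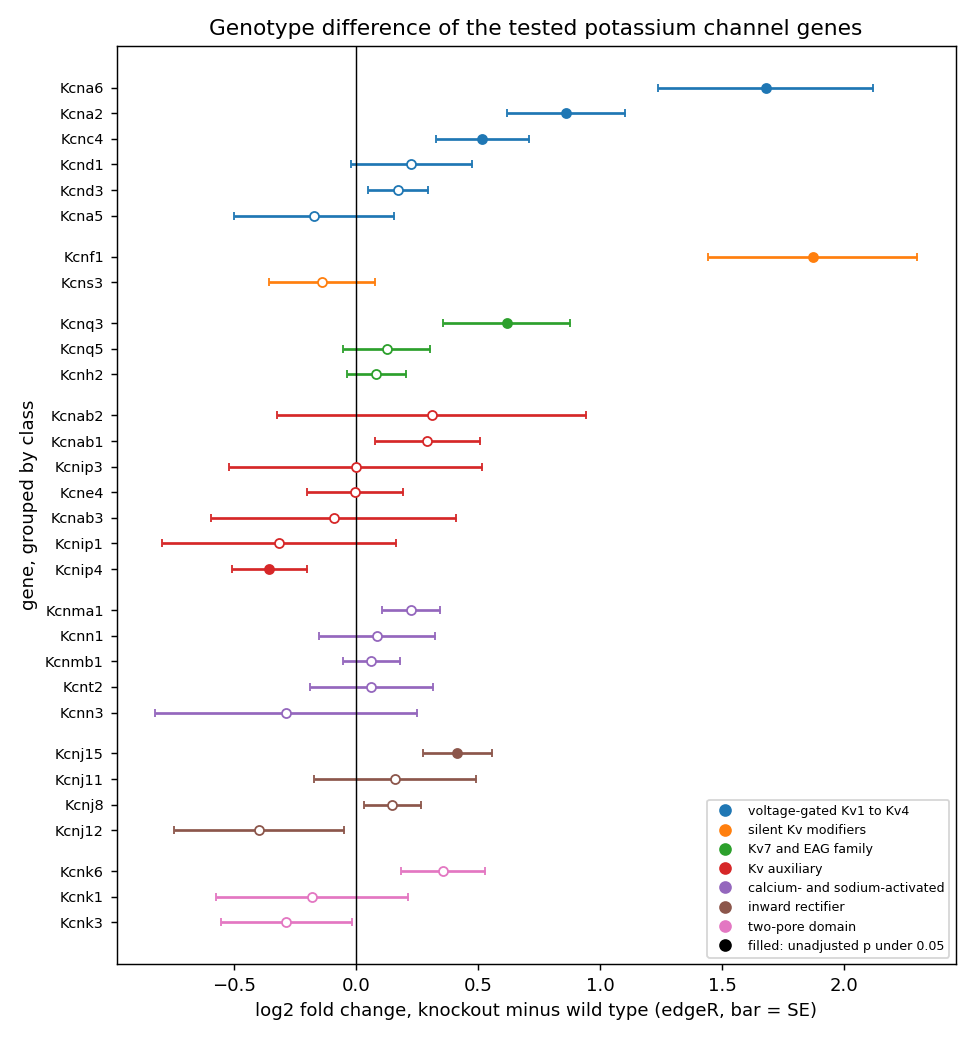
Log2 fold change, knockout minus wild type, with its SE, for 30 of the 32 tested members, grouped by channel class; filled points have an unadjusted edgeR p under 0.05. Kcnf1 (1.87), Kcna6 (1.68) and Kcna2 (0.86) lie farthest to the right, while the BK and ERG genes Kcnmb1 and Kcnh2 lie close to 0.

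Voltage-gated pores of the Kv1 to Kv4 families open on depolarisation and limit contraction. Of 11 members 7 were tested, 6 higher and 1 lower in fitted mean (median log2 fold change 0.23), and 3 of the 7 had an unadjusted p under 0.05, all higher. Kcna6, which encodes Kv1.6, lies on chromosome 6 from 126708329 to 126740674 (mm10). It was at 0.832, 2.59 and 1.93 CPM in wild-type replicates 1 to 3, from 14, 51 and 55 counts, and at 4.04, 4.18 and 9.01 CPM in knockout replicates 1 to 3, from 71, 93 and 253 counts. All 3 knockout libraries were above all 3 wild-type libraries, and knockout replicate 3 was the highest by a wide margin. The log2 fold change was 1.68 ± 0.44 SE, with an adjusted p of 0.561 in edgeR. The exact permutation test, 2-sided, gave p = 0.1, the smallest that 3 against 3 allows. It ran from 1.19 without knockout replicate 3 to 2.02 without wild-type replicate 2. DESeq2 gave it an adjusted p of 0.0422, and that call ended without any library other than wild-type replicate 2, with adjusted p-values of 0.0593 to 0.989.

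Kcna2, which encodes Kv1.2, a partner of Kcna5 in vascular Kv1 channels, lies on chromosome 3 from 107101146 to 107115005. Its levels were 3.15, 3.25 and 3.64 CPM in the wild-type libraries and 6.89, 4.27 and 7.12 CPM in the knockout libraries, in replicate order. The wild-type libraries were close together, and knockout replicate 2 lay nearest to them. The log2 fold change was 0.86 ± 0.24 SE (edgeR adjusted p = 0.625, exact permutation p = 0.1), with 0.73 to 1.06 when single libraries were left out. Kcnc4, which encodes Kv3.4, a fast-inactivating pore, lies on chromosome 3 as well, from 107438303 to 107459552. It was at 42.8, 43.4 and 33.0 CPM (wild type) against 53.4, 44.5 and 72.2 CPM (knockout). Knockout replicate 2 was only just above the highest wild-type library. Its log2 fold change of 0.52 ± 0.19 SE (edgeR adjusted p = 0.775) ran from 0.30 without knockout replicate 3 to 0.66 without knockout replicate 2. Kcnc4 lies within 1 Mb of the Kcna2 start, where 24 genes were tested, these included. Of the 24, 18 were higher and 6 lower in fitted mean (49.9% higher over all genes). At an unadjusted edgeR p under 0.05 were 3, all higher: Kcna2, Kcnc4 and Ampd2 (log2 fold change 0.50). Whether the region has a part in these values was not tested.

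Kcna5, the Kv1.5 pore that is widely studied in arteries, was at 4.28, 6.46 and 7.56 CPM (wild type) against 3.30, 7.90 and 5.05 CPM (knockout), with wide overlap (log2 fold change −0.17 ± 0.33 SE). Kcnd3, the Kv4.3 pore of transient currents, was at 27.6, 33.9 and 30.3 CPM and 35.7, 34.6 and 33.2 CPM (0.17 ± 0.12). Kcnd1, a further Kv4 pore, was at 2.14, 2.29 and 1.86 CPM (wild type) against 2.56, 2.42 and 2.35 CPM (knockout) (0.23 ± 0.25), and its groups did not overlap. Kcna2 and Kcna6 together made up 42.5%, 39.2% and 35.5% of the per-length level of Kcna2, Kcna5 and Kcna6 in the wild-type libraries. In the knockout libraries that share was 71.0%, 42.6% and 68.2%, so that knockout replicate 2 sat beside wild-type replicate 1. Kcna2 and Kcna6 are the Kv1 pores already listed as higher, so a higher share in knockout largely followed from this grouping. The summed per-length level of the Kv1 to Kv4 pores was 28.8 ± 2.11 in wild type and 36.9 ± 4.35 in knockout, with no overlap between the groups. Kcnc4 was the largest part of that sum, at 13.2 ± 1.93 in wild type and 18.8 ± 4.68 in knockout, where replicate 3 was at 23.9. Kcna2 was at 0.969 in wild type and 1.76 in knockout, and Kcna6 at 0.306 and 0.985.

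**Figure D3:**
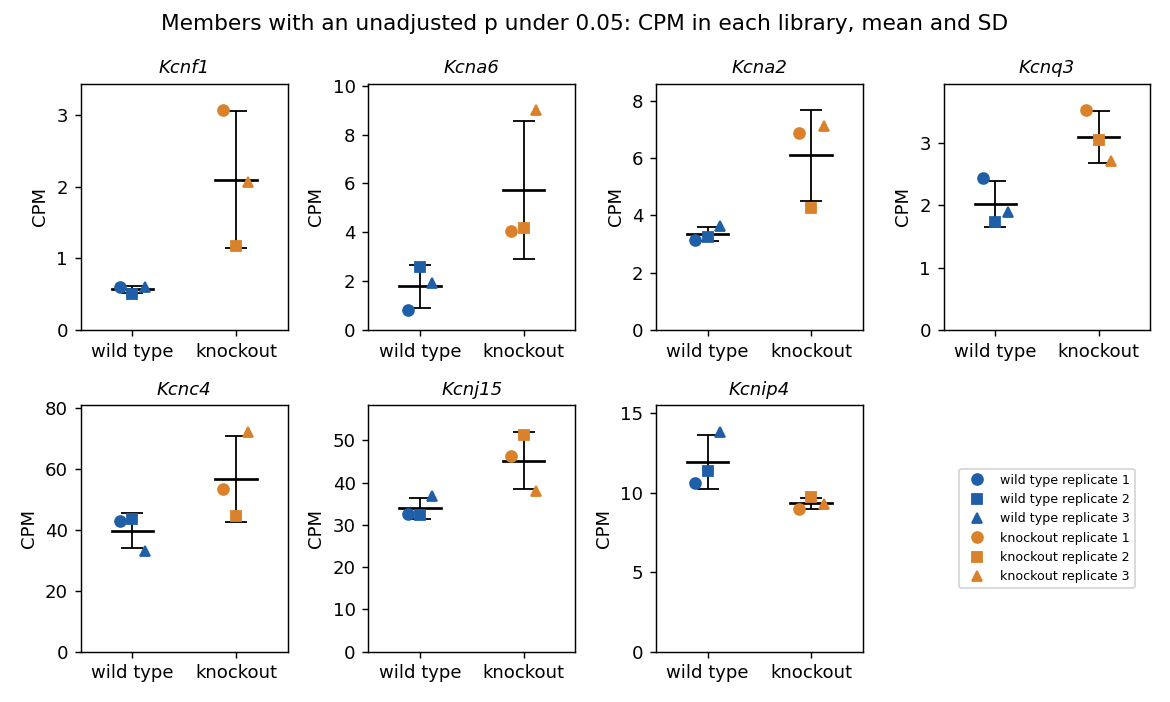
CPM of the 7 members with an unadjusted edgeR p under 0.05 in each library (points), with the mean and SD of each genotype (black). Kcnf1, Kcna6, Kcna2, Kcnq3, Kcnc4 and Kcnj15 are higher in all 3 knockout libraries and Kcnip4 is lower in all 3.

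Silent Kv modifiers do not form channels alone but join other Kv pores and alter their gating. Of 6 members 2 were tested. Kcnf1, which encodes Kv5.1, lies on chromosome 12 from 17172100 to 17176888. Its wild-type levels were low, at 0.594, 0.508 and 0.595 CPM from 10, 10 and 17 counts, and stood at 3.07, 1.17 and 2.06 CPM in knockout from 54, 26 and 58 counts. The groups lay well apart, and the spread was in the knockout. The log2 fold change was 1.87 ± 0.43 SE, the largest of the members (edgeR adjusted p = 0.489, exact permutation p = 0.1), and 1.51 to 2.16 with single libraries left out. DESeq2's adjusted p was 0.0454, and that call was kept without knockout replicate 2 (0.0300) and ended without each of the other 5 libraries (0.107 to 0.748). Kcns3, the Kv9.3 modifier, was at 8.09, 8.24 and 11.3 CPM (wild type) against 10.1, 6.42 and 8.72 CPM (knockout) (−0.14 ± 0.22).

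The promoters of the 4 genes of these classes that edgeR listed as higher at an unadjusted p under 0.05 are printed. Kcnq3 and Kcnj15, of other classes, were listed as higher by the same rule and are not printed. Whether the 4 vary together was not tested. Each window is printed 5′ to 3′ on the gene's strand and runs from 250 bases before to 50 after the RefSeq start (GRCm38.p6, the assembly of mm10), and matches to GGGCGG on either strand are in capitals:

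Kcnf1 (chr12:17176839-17177138, minus strand): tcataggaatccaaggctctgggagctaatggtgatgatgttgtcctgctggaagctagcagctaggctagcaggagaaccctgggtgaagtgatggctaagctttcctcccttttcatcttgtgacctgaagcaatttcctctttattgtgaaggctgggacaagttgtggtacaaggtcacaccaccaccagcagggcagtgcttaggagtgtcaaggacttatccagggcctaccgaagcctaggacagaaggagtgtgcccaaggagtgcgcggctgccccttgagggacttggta

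Kcna6 (chr6:126740625-126740924, minus strand): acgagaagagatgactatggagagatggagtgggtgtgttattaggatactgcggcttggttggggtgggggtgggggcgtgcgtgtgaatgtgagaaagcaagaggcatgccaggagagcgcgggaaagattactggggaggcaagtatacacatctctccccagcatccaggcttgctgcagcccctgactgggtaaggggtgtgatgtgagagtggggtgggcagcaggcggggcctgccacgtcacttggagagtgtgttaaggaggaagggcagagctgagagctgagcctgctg

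Kcna2 (chr3:107101317-107101616, plus strand): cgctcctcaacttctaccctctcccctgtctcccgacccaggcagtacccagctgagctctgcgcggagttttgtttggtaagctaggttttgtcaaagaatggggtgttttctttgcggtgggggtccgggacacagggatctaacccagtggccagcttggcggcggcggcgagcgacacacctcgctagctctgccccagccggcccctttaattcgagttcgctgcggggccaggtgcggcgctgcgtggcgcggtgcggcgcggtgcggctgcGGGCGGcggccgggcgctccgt

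Kcnc4 (chr3:107458849-107459148, minus strand): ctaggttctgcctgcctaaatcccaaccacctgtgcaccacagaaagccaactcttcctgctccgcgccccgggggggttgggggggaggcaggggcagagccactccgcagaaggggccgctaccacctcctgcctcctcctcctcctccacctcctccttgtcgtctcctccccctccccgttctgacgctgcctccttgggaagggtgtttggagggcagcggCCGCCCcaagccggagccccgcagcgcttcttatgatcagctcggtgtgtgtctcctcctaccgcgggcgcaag

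All 4 motifs were searched on both strands. The windows of Kcna2 and Kcnc4 lie inside the spans given above for these genes, so their RefSeq starts differ from the deposited ones. A GGGCGG match lay in the windows of Kcna2 and Kcnc4 and in neither of the other two. It occurred in 35.7% of 32851 such windows and in 12 of the 36 windows of tested members (33.3%), since some of the 24 members with a window have several. TATAAA lay in 13.6% of all windows and in 2 of the 36, those of Kcnj15 and Kcnab1. CATTCC lay in 14.7% of windows and in 3 of the 36, those of Kcna5, Kcnk1 and Kcns3. The CArG box, the serum response factor motif, lay in 1.63% of windows and in 0 of the 36. The windows printed held none of the other 3 motifs. A match is a description of letters.

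Kv7 and ERG channels carry non-inactivating or slowly gated currents that act near the resting potential. Of 7 members 4 were tested (median log2 fold change 0.10). Kcnh2 was at 242, 281 and 289.6 CPM (wild type) against 278, 278 and 304 CPM (knockout), and the groups overlapped (log2 fold change 0.08 ± 0.12 SE). Kcnq5, a Kv7 pore found in arteries, was at 8.62, 11.0 and 10.9 CPM and 13.4, 10.5 and 9.65 CPM (0.13 ± 0.18). Its span overlaps that of Gm7658, a processed pseudogene on the same strand with a mean of 18.8 CPM. How reads were divided between Kcnq5 and Gm7658 was not examined. Kcnq3, best known from neurons, was at 2.44, 1.73 and 1.89 CPM (wild type) against 3.53, 3.05 and 2.71 CPM (knockout), with no overlap. Its log2 fold change was 0.62 ± 0.26 SE (edgeR adjusted p = 0.778) and 0.52 to 0.76 with single libraries left out. Of 6 markers of nerve and Schwann cells analysed, Mbp and Stmn2 were under 0.4 CPM in every library. The 4 tested all had a lower fitted mean in knockout, with 0 at an unadjusted edgeR p under 0.05. Ncam1 (log2 fold change −0.0050) made up most of the sum of the 6, 619 to 722 CPM in wild type and 648 to 663 CPM in knockout. Any part of such cells in the Kcnq3 values was not tested.

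Auxiliary subunits of Kv channels set gating and transport to the membrane. Of 8 members 7 were tested, 2 higher and 5 lower in fitted mean (median log2 fold change −0.0033). Kcnab1 was at 158, 309 and 256 CPM (wild type) against 288, 288 and 309 CPM (knockout). Wild-type replicate 1 was the lowest library and the others overlapped. The log2 fold change was 0.29 ± 0.21 SE with all libraries, 0.064 without wild-type replicate 1 and 0.51 without wild-type replicate 2. Kcne4, which restrains Kv1 and modulates Kv7 channels, was at 27.0, 41.9 and 49.1 CPM and 39.3, 38.3 and 40.6 CPM, so that the wild-type libraries spanned the knockout ones. Kcnip4, a calcium-binding KChIP subunit of Kv4 channels, was the member listed as lower, at 10.6, 11.3 and 13.8 CPM (wild type) against 8.99, 9.70 and 9.29 CPM (knockout) (−0.36 ± 0.15 SE, edgeR adjusted p = 0.778, exact permutation p = 0.1). The value ran from −0.44 without wild-type replicate 1 to −0.24 without wild-type replicate 3. Kcnip4 overlaps 5730480H06Rik on the opposite strand, which was at 11.8 to 15.7 CPM (−0.13 ± 0.14), and since the sources used here do not say whether counting used strand, reads of the pair may not be told apart. The remaining auxiliary members Kcnip3 (at 1.01, 0.407 and 0.910 CPM (wild type) against 0.569, 0.539 and 1.17 CPM (knockout)), Kcnab3, Kcnip1 and Kcnab2 all averaged under 1 CPM. Kcnip1 spans the whole of Kcnmb1 on the other strand, and at 0.487 ± 0.158 and 0.385 ± 0.0993 CPM beside about 408 CPM of Kcnmb1 its count is uncertain. Kcnab2, with a mean of 0.361 CPM, overlaps Nphp4 on the other strand, with a mean of 2.62 CPM, and has the same limit.

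Calcium- and sodium-activated channels couple calcium or sodium signals to hyperpolarisation, and in arteries BK is the main one. Of 8 members 5 were tested, 4 higher and 1 lower in fitted mean (median log2 fold change 0.06). Kcnma1 was at 115, 110.04 and 135 CPM (wild type) against 144, 141.5 and 135 CPM (knockout). The knockout libraries were all higher, by a margin of under 1 CPM between knockout replicate 3 and wild-type replicate 3 (log2 fold change 0.22 ± 0.12 SE, edgeR adjusted p = 0.778). Kcnmb1 was at 368, 418 and 412 CPM and 442, 393 and 415 CPM (0.06 ± 0.12). The ratio of Kcnmb1 to Kcnma1 per length was 3.50, 4.16 and 3.36 in wild type and 3.37, 3.05 and 3.37 in knockout. These ratios overlapped between the genotypes. Kcnt2, a sodium-activated pore, was at 5.23, 5.19 and 6.79 CPM (wild type) against 8.197, 5.48 and 4.48 CPM (knockout) (0.06 ± 0.25). Kcnn1, a small-conductance pore, was at 3.21, 2.44 and 2.73 CPM (wild type) against 3.07, 3.19 and 2.63 CPM (knockout) (0.09 ± 0.24). Kcnn3, which is prominent in endothelium, was at 1.31, 0.356 and 0.595 CPM (wild type) against 0.683, 0.718 and 0.427 CPM (knockout), and its log2 fold change of −0.29 turned to 0.31 without wild-type replicate 1.

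Inward rectifiers pass current near the resting potential, and Kcnj8 and Kcnj11 encode pores of ATP-sensitive channels. Of 6 members 4 were tested, 3 higher and 1 lower in fitted mean (median log2 fold change 0.15). Kcnj15, the Kir4.2 pore, lies on chromosome 16 from 95257558 to 95300260 and was at 32.5, 32.3 and 36.8 CPM (wild type) against 46.4, 51.4 and 37.9 CPM (knockout). Knockout replicate 3 lay just above wild-type replicate 3, and the other 2 knockout libraries lay well above (log2 fold change 0.41 ± 0.14 SE, edgeR adjusted p = 0.769, exact permutation p = 0.1). The value ran from 0.31 to 0.53 with single libraries left out, and its unadjusted p was under 0.05 in 3 of those 6 fits. Kcnj8 was at 44.1, 46.3 and 43.8 CPM and 49.0, 44.8 and 54.6 CPM, with overlap (0.15 ± 0.12). Kcnj11 was at 2.38, 2.59 and 1.75 CPM (wild type) against 1.59, 3.41 and 2.42 CPM (knockout) (0.16 ± 0.33). Kcnj12, a strong rectifier, was at 4.70, 1.98 and 4.87 CPM (wild type) against 3.24, 2.33 and 3.20 CPM (knockout) (−0.40 ± 0.35). Both overlapped between genotypes. Kcnj2, the strong rectifier best known in small arteries, had 0, 3 and 1 counts in wild type and 0, 6 and 7 in knockout and was not tested. A count of 0 allows up to 3 counts, or 0.178 CPM in wild-type replicate 1. The summed per-length level of the inward rectifiers was 28.8 ± 0.278 in wild type and 32.6 ± 1.10 in knockout, and the groups did not overlap.

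K2P channels give the background potassium conductance. Of 4 members 3 were tested, 1 higher and 2 lower in fitted mean (median log2 fold change −0.18). Kcnk3, which encodes TASK-1, was at 21.9, 13.4 and 19.1 CPM (wild type) against 11.1, 21.2 and 12.3 CPM (knockout) (−0.29 ± 0.27 SE). The knockout replicate 2 was as high as the wild-type libraries, so that the groups overlapped, and the value ran from −0.63 without knockout replicate 2 to −0.12 without knockout replicate 1. Kcnk6, the TWIK-2 pore and a holder of an 8mer site printed above, was at 5.05, 6.36 and 5.57 CPM and 7.57, 6.92 and 7.26 CPM, with no overlap (0.36 ± 0.17 SE, edgeR adjusted p = 0.778, exact permutation p = 0.1). Kcnk1, the TWIK-1 pore, was at 1.13, 3.25 and 1.61 CPM (wild type) against 1.76, 1.71 and 1.82 CPM (knockout), and its log2 fold change of −0.18 turned to 0.35 without wild-type replicate 2.

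**Figure D4:**
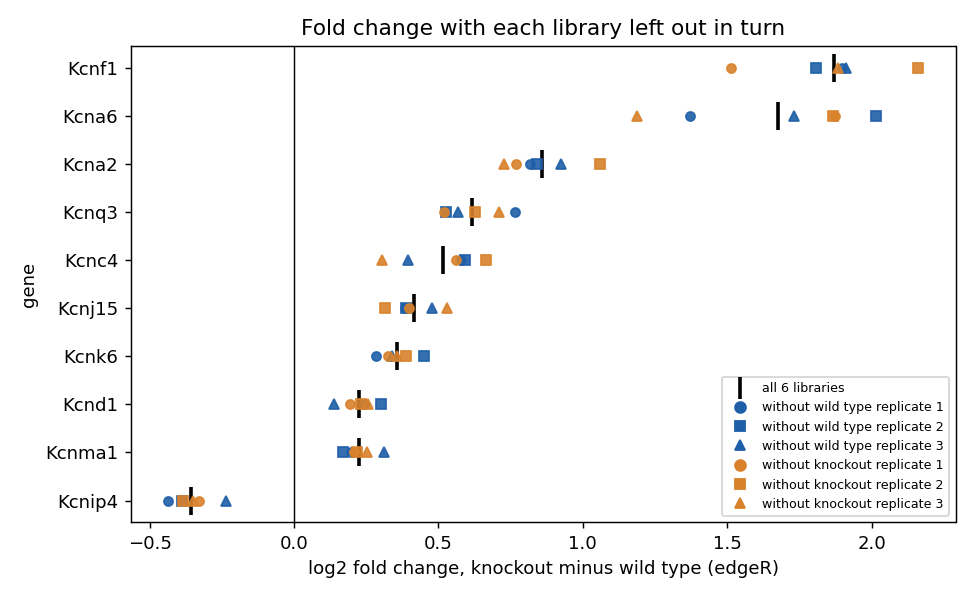
Log2 fold change, knockout minus wild type, of the 10 members whose groups did not overlap, with all 6 libraries (black bar) and with each library left out in turn (points). Every point keeps the side of 0 of its bar, which largely follows from choosing members without overlap. Kcna6 ranges from 1.19 to 2.02 and Kcnc4 from 0.30 to 0.66.

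The direction of the 10 members without overlap was the same in every edgeR fit that left out 1 library. Groups without overlap stay apart when a library is left out, so this outcome largely followed from how the 10 were chosen. Kcnf1, Kcna6 and Kcna2 had an unadjusted p under 0.05 in all 6 such fits, Kcnc4 in 4, Kcnj15 in 3, and Kcnq3 and Kcnip4 in 1 each. Below 10 CPM lay 18 of the tested members, 4 of them with an unadjusted p under 0.05 and all 4 higher, against 2.597% of all genes in that range listed as higher. At 10 CPM or more lay 14, with 2 higher and 1 lower, against 3.02% and 3.76% of all genes in that range.

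The 18 members that were not tested had at most 19 counts in any library. They included Kcna3, Kcna4 and Kcnd2 among the Kv pores, Kcng1, Kcng2, Kcng3 and Kcng4 among the silent modifiers, Kcnh3 and Kcnh7 in the Kv7 and EAG family, and the regulator Kcnrg. Kcnmb4, Kcnn4 and Kcnt1 were the untested calcium- and sodium-activated members, and Kcnj2, Kcnj13 and Kcnk7 the remaining ones. Kcnn4, the intermediate-conductance channel known from proliferating smooth muscle, had 1, 3 and 13 counts in wild type and 4, 3 and 3 in knockout. Of these members Kcnh3 had the highest mean, at 0.398 CPM. Kcnq1, Kcnk2 and Kcnn2 were not analysed here.

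Genes that build or anchor potassium channels without a Kcn symbol were read from a separate list of 24. Of these 18 were tested, 8 higher and 10 lower in fitted mean (median log2 fold change −0.04). None had an unadjusted p under 0.05 in edgeR, 0 passed there after adjustment, and 0 passed in DESeq2. Abcc9, which encodes SUR2, the regulatory partner of Kcnj8, was at 138, 278 and 337 CPM (wild type) against 405, 299.6 and 291 CPM (knockout) (log2 fold change 0.40 ± 0.29 SE), with wild-type replicate 1 the lowest. Per length its ratio to Kcnj8 was 0.908, 1.74 and 2.23 in wild type and 2.40, 1.94 and 1.55 in knockout, so the groups overlapped. The 3 others with the smallest p-values follow. Amigo1, an auxiliary protein of Kv channels, was at 20.03, 26.1 and 30.2 CPM (wild type) against 34.7, 31.8 and 29.6 CPM (knockout) (0.33 ± 0.16). Wnk1, a kinase that regulates ion transport, was at 164, 120.0 and 113 CPM (wild type) against 107, 129.1 and 109 CPM (knockout) (−0.20 ± 0.16). The scaffold gene Dlg1 was at 56.3, 71.2 and 88.6 CPM (wild type) against 88.0, 78.0 and 79.1 CPM (knockout) (0.18 ± 0.16).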

How the data were processed

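RNA of aortic smooth muscle cells was sequenced from 3 wild-type and 3 knockout libraries. Trizol was used for extraction from flash-frozen cells, per the labels' protocols, and libraries were made with the Illumina TruSeq kit. STAR 2.6, DESeq2 and mm10 appear in the submitters' processing notes, which do not give their roles, and no counting tool is named there. Values in the authors' deposited table are expected counts, not normalised, as read from the values, of which 65.4% lay within 0.01 of a whole number. They were rounded here. In the deposited coordinates the stop was 1 base past the RefSeq end far more often than equal to it (4672 against 411 of 17011 genes), so 1 was subtracted.

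Genes were kept with filterByExpr, scaled with TMM factors and tested with edgeR 4.0.16 (glmQLFit and glmQLFTest, robust, R 4.3.3), 2-sided, and p-values were adjusted by Benjamini-Hochberg across the 15185 genes, at a threshold of 0.05. To give an SE, the absolute log2 fold change was divided by √F. Alternatives were DESeq2 1.42.0, limma 3.58.1 (voom), other scalings and filters, a replicate block and leaving out each library; DESeq2 without each library and class sums by mean transcript length were added after seeing the data. The fits were tested on simulated data. Permutation tests used log2 CPM with a prior count of 2. Transcript lengths and 3′ UTRs came from GENCODE vM1, matched by symbol for all 50 members. Motifs were searched in RefSeq promoter windows of GRCm38.p6.

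The members and lists were chosen with earlier results of these data known. Values per library are given for the 4 tested members with the highest CPM in each class, for those with an unadjusted p under 0.05 and for members best known from vascular muscle. Untested members are named at a mean of at least 0.1 CPM, and of the partner list Abcc9 and the 3 others with the smallest p. SDs have n = 3 per genotype unless stated. Kcnd1, Kcnab2, Kcnab3, Kcnip1, Kcnd2, Kcng1 and Kcnj13 are named outside that rule to complete the account. Some members and 1 marker are not reported here by name.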

Additional observations from a re-analysis of the deposited data

How the results depend on the processing

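The number of members called after adjustment was 0 in edgeR under every setting tried and 2 in DESeq2. DESeq2's count fell to between 0 and 1 when single libraries were left out. Members at an unadjusted p under 0.05 numbered 7, between 4 and 8 with single libraries left out. Over all genes the number was 955, and between 620 and 1271 with single libraries left out. Members whose groups did not overlap numbered 10, and between 10 and 17 with single libraries left out, while the share of all genes went from 14.5% to between 20.9% and 27.9%; the 17, of 33 members tested, came without wild-type replicate 2, where the share of all genes was 24.7%. Without the low-count filter all 50 members were tested. The summed inward rectifier level had a log2 difference of 0.24 in CPM, against 0.18 per length. The sources used here do not say whether replicate numbers mark pairs. Same-numbered libraries correlated at −0.27, −0.18 and −0.08 in their deviations from the group means, and no library correlated best with its own number. Deviations within a group of 3 sum to 0, so these correlations depend on each other and cannot decide whether the libraries were paired. With the replicate number as a block 3 members had an unadjusted p under 0.05, and over all genes the number fell from 955 to 572.

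Of the 32 tested members 20 kept their sign in every fit. With single libraries left out, those whose log2 fold change spanned 0 included Kcna5 (−0.54 to 0.074), Kcnab2 (−0.027 to 0.64), Kcnab3 (−0.36 to 0.16), Kcne4 (−0.21 to 0.19), Kcnip3 (−0.48 to 0.20), Kcnj11 (−0.14 to 0.39), Kcnk1 (−0.44 to 0.35), Kcnn3 (−0.61 to 0.31), Kcnq5 (−0.020 to 0.22), Kcns3 (−0.29 to 0.040) and Kcnt2 (−0.21 to 0.24). Values at about 0 also changed sign with the tool or scaling. Kcne4 went to 0.0040 in DESeq2, 0.028 in voom, 0.0029 with RLE factors, 0.036 with library totals, 0.000598 without the filter and 0.038 with the block. Kcnip3 went to 0.021 in voom, 0.0039 with RLE factors, 0.036 with library totals and 0.0063 without the filter, and Kcnt2 to −0.032 in voom. The cause was not tested. Depth limits the members under 1 CPM, and 18 members had too few counts to be tested with the filter.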
